A study of Mus musculus with 10 samples.

Results

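Ccl1, Ccl3, Ccl4 and Ccl5 are 4 genes of secreted CC chemokines on mouse chromosome 11, and their occupancy by RNA polymerase II was followed in T helper cells before and after restimulation. They were taken by gene symbol from the deposited promoter peak tables, together with any peak or summit within 20 kb of their spans, and they are 4 of 10419 genes with an assigned promoter peak in at least 1 library. Polymerase was immunoprecipitated with the antibody 8WG16 (ab817) and sequenced (ChIP-seq) in primary Th1 cells. The strain was Balb/c DO11.10, whose mice carry a transgenic T cell receptor. All cells were CD4+ T cells that had been primed towards Th1, grown with an analogue of interleukin 2 and rested without it, and all were fixed in 1% formaldehyde for 10 min. The 3 groups of 2 libraries were cells not restimulated (NR) and cells restimulated with plate-bound anti-CD3 (5 µg/ml) and soluble anti-CD28 (2.5 µg/ml) for 30 min or for 2 h. The comparison asks when polymerase is recruited to genes after T cell receptor stimulation. Whether replicates came from different mice or cultures is not in the labels, so p-values reflect the variation among these libraries alone and it may be technical.

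CC chemokines are small proteins that bind G protein-coupled receptors on leukocytes and direct their migration. Ccl3 and Ccl4 encode the macrophage inflammatory proteins MIP-1 alpha and MIP-1 beta, and Ccl5 encodes RANTES. All of these are made by activated T cells, among others. Ccl1 encodes a ligand of the receptor Ccr8 and is also secreted by activated T cells. Initiating polymerase gathers at a start site, and elongating polymerase then spreads over the gene and past its 3′ end before it is released.

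In mm10 coordinates, as the tables give them, Ccl3 (Entrez gene 20302) spans chr11:83647843-83649378 on the minus strand, and Ccl4 (20303) spans chr11:83662584-83664683 on the plus strand. Their start sites lie 13206 bp apart and point away from each other. Ccl5 (20304) spans chr11:83525779-83530518 on the minus strand, 118.9 kb from the start site of Ccl3. Ccl1 (20290) lies apart from the others, at chr11:82176666-82179812 on the minus strand, 1.35 Mb from Ccl5. All are short, with spans of 3147 bp (Ccl1), 1536 bp (Ccl3), 2100 bp (Ccl4) and 4740 bp (Ccl5), so a wide peak can cover a whole gene.

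The 250 bases before the start site are shown for Ccl3 and Ccl1. Ccl3 had called peaks at both times and Ccl1 at 2 h alone. RefSeq's promoter table (GRCm38.p6, the assembly of mm10) held 2 of the 4 genes. The Ccl3 sequence is chr11:83649379-83649628 and that of Ccl1 chr11:82179813-82180062, both on the minus strand and written 5′ to 3′.
Ccl3: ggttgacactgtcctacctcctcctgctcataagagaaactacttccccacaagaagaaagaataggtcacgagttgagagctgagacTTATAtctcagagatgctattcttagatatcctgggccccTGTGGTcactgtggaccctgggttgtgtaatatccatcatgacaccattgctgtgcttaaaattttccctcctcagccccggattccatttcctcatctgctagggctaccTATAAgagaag
Ccl1: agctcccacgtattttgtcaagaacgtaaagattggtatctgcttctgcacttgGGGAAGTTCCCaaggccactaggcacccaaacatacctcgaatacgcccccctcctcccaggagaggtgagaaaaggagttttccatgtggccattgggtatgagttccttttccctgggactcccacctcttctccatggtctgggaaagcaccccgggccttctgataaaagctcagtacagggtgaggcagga
Capitals mark matches, on either strand, to the TATA box core TATAA, the Runx motif TGTGGT and the NF-kB motif. The Ccl3 sequence held 2 matches to TATAA (22.8% of 32851 promoters of this length have at least 1) and 1 to TGTGGT (14.05%). The TATAA matches lay at -162 to -158 from the start site, on the opposite strand, and at -11 to -7. Whether either acts as a TATA box was not tested. The Ccl1 sequence held 2 overlapping matches to the NF-kB motif on opposite strands (7.25% of promoters). Neither held the AP-1 motif TGANTCA (6.75% of promoters). The short NFAT core GGAAA, not capitalised, matched at 2 places in Ccl3 and 3 in Ccl1, and 55.6% of promoters have it. The Ccl3 sequence lay under the promoter peak in full in 3 libraries and for 186 of its 250 bases in 30 min replicate 1. The Ccl1 peaks reached only 26 and 4 bases into the Ccl1 sequence at 2 h.

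The libraries differed in depth, which bears on what could be called. The lists held 15330 to 23299 summits and 9074 to 10680 promoter peaks. Read totals and fragment lengths are not in the files. The genome-wide background coverage that the pileup and fold enrichment of the peaks imply was taken as a measure of depth, though it also depends on fragment length. It was 0.659 (NR), 1.57 (30 min) and 2.48 fragments (2 h) in replicates 1, and 5.92, 4.67 and 5.55 fragments in replicates 2. By this measure depth rose with time in replicates 1, while in replicates 2 the NR library was the deepest of all 6. The called promoter DNA also grew, from 8.73 and 11.85 Mb in NR cells to 8.98 and 18.2 Mb at 30 min and 14.3 and 18.0 Mb at 2 h.

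None of the 4 chemokine genes had a promoter peak in either NR library. At 30 min Ccl3 and Ccl4 had one in both libraries and Ccl5 in 1 library, and at 2 h all 4 had one in both libraries. No promoter peak with another symbol lay within 20 kb of any of them. Over all 10419 genes, 0.374% gained a peak in this way at 30 min (both libraries, with none in NR cells) and 0.365% lost one (both NR libraries, with none at 30 min). At 2 h 2.57% gained and 0.662% lost one, and 0.298% had one in all 4 restimulated libraries and none in NR cells, as Ccl3 and Ccl4 did. NR replicate 2, the deepest library by background coverage, listed promoter peaks down to a fold enrichment of 2.24 but none here. Whether weaker occupancy went unlisted there was not tested.

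**Figure D1:**
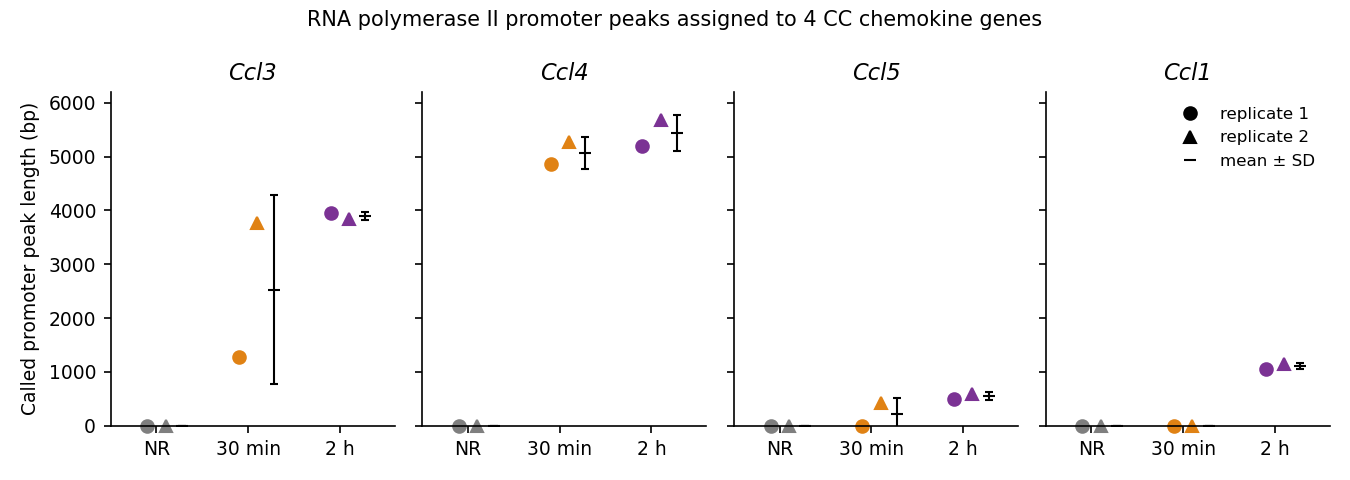
Length of promoter peak assigned to each gene (bp, vertical axis) in NR cells and at 30 min and 2 h, with circles for replicate 1, triangles for replicate 2 and bars for the mean ± SD of 2 libraries. All NR libraries sit at 0, Ccl4 lies between 4861 and 5682 bp in the 4 restimulated libraries, and Ccl1 leaves 0 only at 2 h.

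Ccl4 had the longest peaks of the 4. Its promoter peak was 4861 bp in replicate 1 and 5276 bp in replicate 2 at 30 min (5068.5 ± 293 bp, SD, n = 2), and 5205 and 5682 bp at 2 h (5443.5 ± 337 bp, SD, n = 2), against none in NR cells. The restimulated libraries all lay above both NR libraries, while the 30 min and 2 h libraries overlapped. Of all genes, 0.298% had a peak in all 4 restimulated libraries and none in NR cells. With limma over 9908 genes, adjusted p was 0.00356 at 30 min and 0.00441 at 2 h against NR cells, a pair of tests that share the NR libraries. No fold is given, since NR cells gave no peak for this gene. Ccl4 entered the fit only through restimulated libraries, so in bp the direction of both tests was set in advance.

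Each Ccl4 peak covered the whole gene and ran past its 3′ end, by 2523 and 2834 bp at 30 min and by 2774 and 3179 bp at 2 h, while it began only 238 to 403 bp before the start site. In 3 of the 4 libraries (all but 30 min replicate 1) the peak ended inside the long noncoding RNA gene Gm51868, whose RefSeq span begins at 83667357. Of the promoter peaks at genes of 1000 to 5000 bp, those that covered the gene and at least 1500 bp past it were 2.99% and 7.63% in the 30 min lists and 4.97% and 6.50% in the 2 h lists. The summit, the highest point of a peak, lay at the start site in replicates 2 (87 bp inside at 30 min, 46 bp at 2 h). In replicates 1 it lay past the 3′ end, by 733 bp at 30 min and by 1289 bp at 2 h. Summit position at Ccl4 therefore split the libraries by replicate and not by time, and replicates 1 were the shallower ones, whose part in this was not tested. Among all peaks that cover such a short gene, the summit lay past the 3′ end in 10.9% and 11.9% of those in the replicate 1 lists at 30 min and 2 h, and in 3.15% and 2.96% of those in the replicate 2 lists.

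Ccl3, the neighbour of Ccl4, was less even at 30 min. Its promoter peak was 1283 bp in replicate 1 and 3769 bp in replicate 2 (2526 ± 1758 bp, SD, n = 2), and 3952 and 3843 bp at 2 h (3897.5 ± 77.1 bp, SD, n = 2). The 2 h libraries thus lay above both 30 min libraries, by a small margin over 30 min replicate 2. Over all 10419 genes 16.1% had more called bp in both 2 h libraries than in both 30 min libraries, as Ccl3, Ccl5 and Ccl1 did. Adjusted p by limma was 0.0107 at 30 min and 0.00725 at 2 h against NR cells. As for Ccl4, the direction of these tests in bp was set in advance by the lack of NR peaks. The 30 min call of Ccl3 was lost in 8 of 16 alternatives, among them a pseudocount of 1000 bp (adjusted p = 0.0587), quantile normalisation (0.106) and a fit of only the 4 libraries compared (0.151).

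At 30 min in replicate 1 the Ccl3 promoter peak covered 71.4% of the gene and stopped 439 bp short of its 3′ end. A second summit, which belonged to a separate peak of unknown width, lay 206 bp past that end, with a −log10 q of 23.1 against 12.2 for the promoter peak. In the other 3 restimulated libraries 1 promoter peak covered the whole gene and went on for 1941 to 2139 bp. Its summit lay 216 bp (30 min) and 126 bp (2 h) inside the gene in replicates 2, and 369 bp past the 3′ end in 2 h replicate 1. RefSeq's longer Ccl4 span begins inside Ccl3, and in 3 libraries (all but 2 h replicate 1) the Ccl3 promoter summit lies in both spans, so those peaks cannot be given to Ccl3 alone by position. The short value of 30 min replicate 1 thus came with a second peak at the same gene that the promoter tables leave out.

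**Figure D2:**
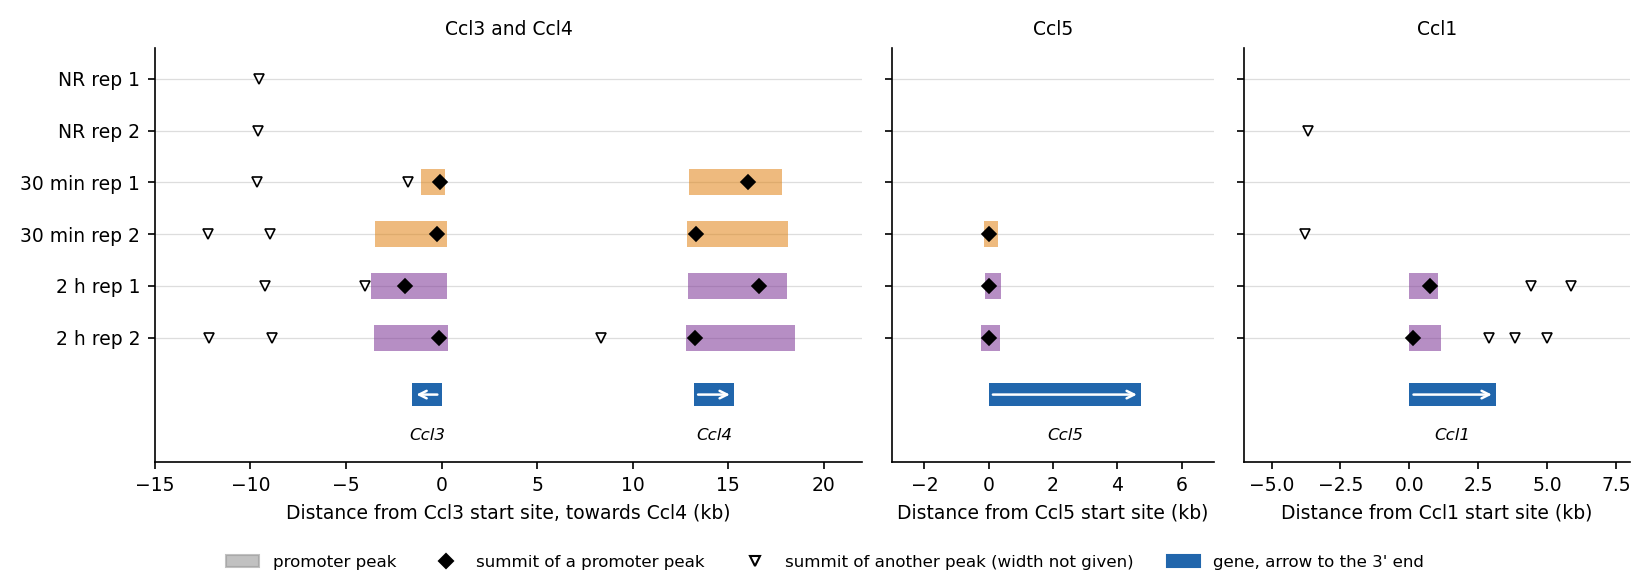
Position of peaks around the chemokine genes, with distance from a start site in kb on the horizontal axis and 1 line per library. Bars are promoter peaks, filled diamonds their summits, open triangles summits of other peaks, and blue boxes the genes. The Ccl3 and Ccl4 bars run past the 3′ ends, the Ccl5 bars stay at the start site, and an open triangle about 8 kb past the 3′ end of Ccl3 is present in all 6 libraries.

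Ccl5 had short peaks confined to its start site in the libraries that had one. There was no peak at 30 min in replicate 1, 429 bp in replicate 2, and 503 and 597 bp at 2 h (550.0 ± 66.5 bp, SD, n = 2). Summits lay 10 to 24 bp inside the gene in these 3 libraries, and the peaks covered 5.8% to 8.0% of it. Called length at Ccl5 did not pass the test against NR cells at 30 min (adjusted p = 0.781, limma) or at 2 h (adjusted p = 0.400). Both 2 h libraries lay above both NR libraries, which held no peak, and 2.57% of all genes gained a peak in this way. No other summit was listed within 20 kb of Ccl5 in any library. RefSeq places a long noncoding RNA gene, Gm32650, over the same start site, so a peak there cannot be given to either gene alone.

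Ccl1 had no promoter peak in the NR and 30 min libraries and 1061 and 1143 bp at 2 h (1102 ± 58.0 bp, SD, n = 2). The 2 h libraries lay above the other 4, and the pattern of a peak in both 2 h libraries and none of the other 4 was found for 0.633% of all genes. A peak in both libraries at 2 h and none at 30 min, whatever NR cells had, was found for 0.71%. Called length did not pass the test against NR cells (adjusted p = 0.283, limma) or against 30 min (adjusted p = 0.655). By fold enrichment the 2 h peaks stood low in their lists, at rank 8556 of 10549 (replicate 1) and 10021 of 10658 (replicate 2). Absence of a listed peak at 30 min thus does not show when recruitment to Ccl1 began.

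The Ccl1 promoter peaks covered 32.9% and 36.2% of the gene, nearly all of it downstream of the start site, with the summit 743 bp inside in replicate 1 and 143 bp inside in replicate 2. Further summits appeared towards and past the 3′ end at 2 h. In replicate 1 they lay 1.3 and 2.7 kb past that end. The nearer one had a −log10 q of 27.4, above the 9.04 of the promoter peak, and the farther one 2.09, above only 1.1% of its list. In replicate 2 the summits lay 0.3 kb before the 3′ end and 0.7 and 1.8 kb past it. Their −log10 q was 3.15, 4.44 and 4.44, under the 5.65 of the promoter peak. All but the nearer summit of replicate 1 thus had a −log10 q under 5. Upstream of the gene, a summit at -3693 bp from the start site in NR replicate 2 had a partner at -3781 bp in 30 min replicate 2, and no other library listed one there. These are the replicate 2 libraries, deeper than those of replicate 1 at the same times, and the part of depth in this pattern was not tested.

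Summits of all peaks within 20 kb of the 4 genes numbered 1 and 2 in the NR libraries, 4 and 6 at 30 min and 8 and 10 at 2 h (replicates 1 and 2). These totals did not overlap between groups, and with 2 libraries against 2 the smallest exact permutation p is 1 in 3. Taken gene by gene, 0 of the 4 had counts that rose from NR to 30 min to 2 h with no overlap (0.374% of all genes). More summits in both 2 h libraries than in both NR libraries were listed for 4 of 4 (18.2% of all genes). The Ccl3 and Ccl4 windows overlap and share summits, so the counts of these 2 genes are not separate observations. With summit lists of equal length the totals were 0 and 1 in NR cells, 4 and 4 at 30 min and 6 and 5 at 2 h. The summit of NR replicate 1 and 1 of those of NR replicate 2 marked the same place, and every other library had a summit there too. It lay between 83639719 and 83640483 on chromosome 11, 7.4 to 8.1 kb past the 3′ end of Ccl3, where RefSeq has no gene. Of all summits of NR replicate 1, 54.3% had a summit within 1000 bp in each of the other 5 lists, so a place shared by all libraries was common. A second place, 10.7 kb past the 3′ end of Ccl3, had a summit in 30 min replicate 2 and in 2 h replicate 2. Single summits lay 2.5 kb past the 3′ end of Ccl3 in 2 h replicate 1, over the pseudogene Rpl9-ps1, and 4.8 kb before the tables' Ccl4 start in 2 h replicate 2, inside RefSeq's longer Ccl4 span. The other RefSeq genes in these windows were Heatr9, Gm23247, Gm51868 and Atp5k-ps3, with no assigned promoter peak in any library, and Taf15, which encodes a TATA-box binding protein associated factor. Taf15 had 561 and 1127 bp before restimulation, 803 and 1323 bp at 30 min and 1418 and 1957 bp at 2 h, and its peaks lay outside the Ccl5 window.

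Fold enrichment, the ratio of a peak's pileup to its local background, is the authors' value for a peak within its own list. Ranks from lists of different lengths cannot show whether occupancy changed between libraries, and they are given as a description. Ccl4 ranked 309 of 9074 and 2201 of 10680 promoter peaks at 30 min, and 4 of 10549 and 2272 of 10658 at 2 h (replicates 1 and 2), with fold enrichments of 28.7, 33.6, 69.1 and 28.4. Ccl4 was thus in the upper part of every list that held it.

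Ccl3 exceeded 37.4% and 35.0% of the promoter peaks in the 30 min lists, with fold enrichments of 7.16 and 14.8. It exceeded 94.6% and 60.4% in the 2 h lists, with 32.5 and 21.2. Ccl5 exceeded 11.6% (30 min replicate 2), 24.1% and 19.3% (2 h), with fold enrichments of 5.65, 6.61 and 7.69. Ccl1 exceeded 18.9% and 6.0% at 2 h, with 5.70 and 4.07. Peaks of Ccl5 and Ccl1 therefore stood low in the lists. Nor were they among the widest, exceeding 5.5% to 19.8% (Ccl5) and 44.6% to 54.3% (Ccl1) of the peaks, against 95.8% to 98.4% for Ccl4 and 81.5% to 95.9% for Ccl3.

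**Figure D3:**
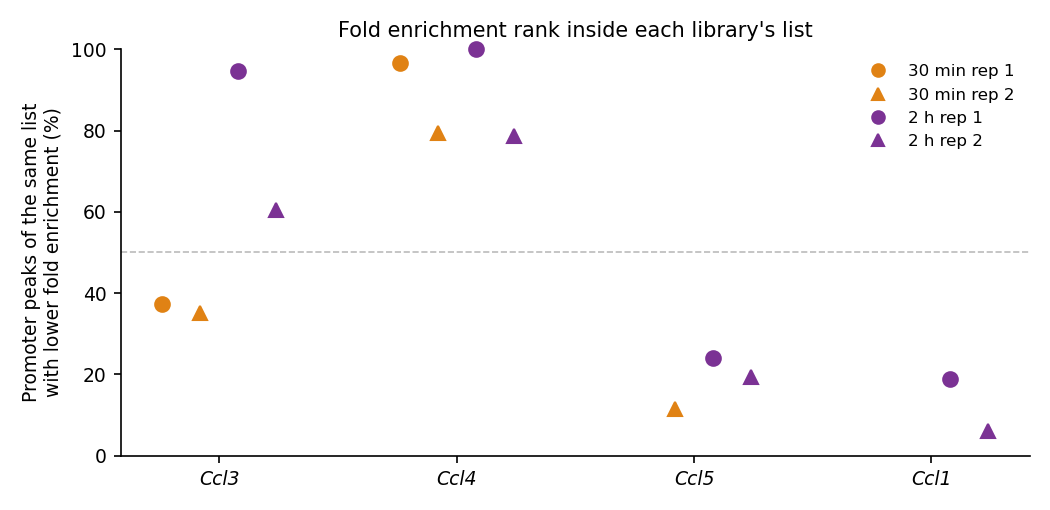
Share of the promoter peaks in the same list that had a lower fold enrichment (%, vertical axis) for each gene and each restimulated library, with circles for replicate 1, triangles for replicate 2 and a dashed line at the middle of the list. Ccl4 lies at 78.7% or higher in all 4 libraries, while Ccl5 and Ccl1 lie at 24.1% or lower.

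The limma fit covered 9908 genes, those called in 2 or more libraries. With no peak in NR cells, the 4 chemokine genes entered it only through restimulated libraries, so in bp they could not be shorter than in NR cells. In this fit 2 of the 4 (Ccl3 and Ccl4) had longer called peaks at 30 min than in NR cells and 2 did not pass. Of all genes tested 0.232% were longer and 0.0101% shorter. At 2 h the same 2 genes were longer, against 0.373% of all genes (0.0606% were shorter), and Ccl1 and Ccl5 did not pass. Between 2 h and 30 min none of the 4 passed (0% of all genes were longer by limma, with 513 of 9908 at an unadjusted p under 0.05). On the log2(bp + 100) scale, centred by library, that difference was -0.22 ± 0.26 for Ccl4 (SE, adjusted p = 0.872), 0.47 ± 0.30 for Ccl3 (SE, adjusted p = 0.866) and 1.18 ± 0.91 for Ccl5 (SE, adjusted p = 0.866). Ccl1, for which 30 min gave no peak and no fold is given, had an adjusted p of 0.655 and an unadjusted p of 0.0112. Ccl3 differed by 0.13 without 30 min replicate 1 and by 0.82 without replicate 2, and Ccl5 by 0.37 and 1.99. For Ccl5 it was 2.39 with lists of equal length and 0.20 with a pseudocount of 1000 bp. Without centring the Ccl4 difference was 0.10, and without 30 min replicate 1 it was 0.12, so it has no settled direction.

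The calls rested on few libraries. For Ccl3 at 30 min the adjusted p by limma was 0.0820 without NR replicate 1, 0.0618 without NR replicate 2, 0.105 without 2 h replicate 1 and 0.0891 without 2 h replicate 2, and at 2 h it was 0.0739 without NR replicate 1, 0.103 without 2 h replicate 1 and 0.106 without 2 h replicate 2. For Ccl4 it was 0.0597 at 30 min without NR replicate 1, and at 2 h 0.0546 without NR replicate 1, 0.0743 without 2 h replicate 1 and 0.0942 without 2 h replicate 2. The number of longer genes at 30 min, 23 in all, was 4, 12, 59, 53, 5 and 5 without NR replicates 1 and 2, 30 min replicates 1 and 2 and 2 h replicates 1 and 2, and the 37 at 2 h were 4, 17, 142, 156, 3 and 3. Before centring, the 2 NR values of each chemokine gene are the pseudocount, so the spread between them in the fit comes from the centring alone. NR cells thus add no measured spread, and the p-values may be too small.

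**Figure D4:**
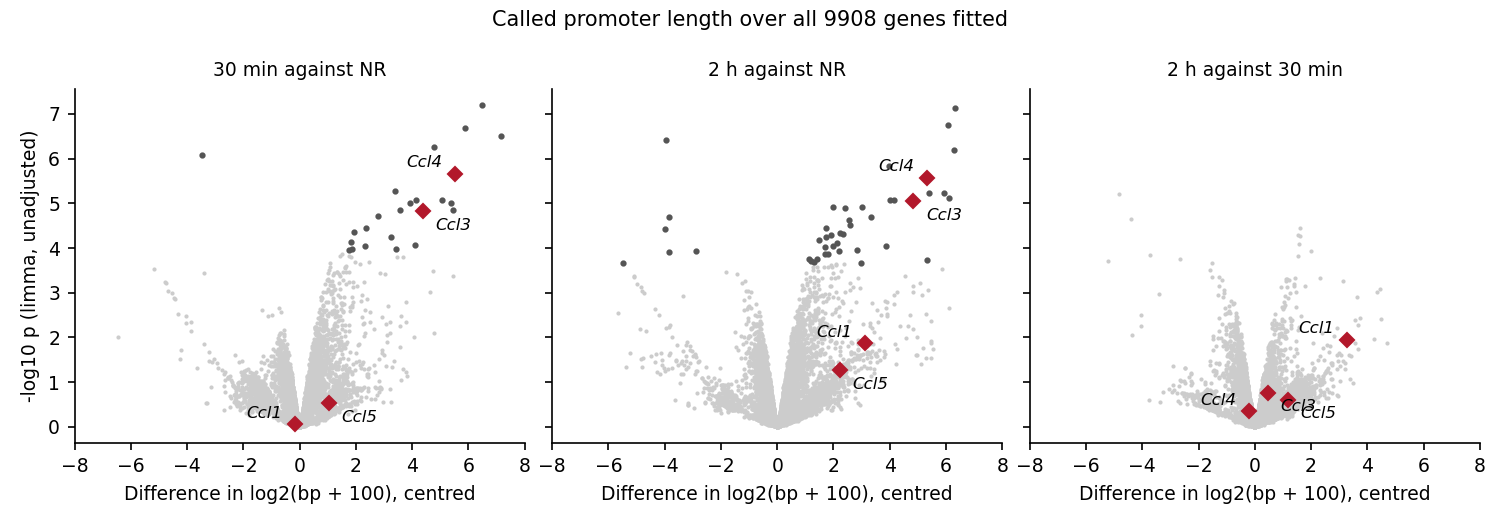
Difference in centred log2(bp + 100) (horizontal axis) against −log10 of the unadjusted limma p (vertical axis) for all 9908 genes in the 3 comparisons. Dark points passed an adjusted p of 0.05 and red diamonds are the chemokine genes, with Ccl3 and Ccl4 among the dark points in both comparisons with NR cells.

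Genes whose called lengths over the 6 libraries were most like each member were found by the Euclidean distance between centred log2(bp + 100) values. For Ccl1 they were Il2, which encodes interleukin 2 (distance 0.57), Marcks (0.58) and Sox5 (0.61), and Il2 had 683 and 1135 bp at 2 h and no peak before. For Ccl5 they were Pacsin1 (0.11), Aff3 (0.23) and Fastkd1 (0.24). For Ccl4 they were AF357399 (1.28), the zinc finger transcription factor gene Egr2 (1.97) and Cdh23 (2.58), and Egr2 had 7853 and 12325 bp at 30 min and 10168 and 11706 bp at 2 h. AF357399 is a small nucleolar RNA gene in RefSeq, which the naming rule, set on the start of symbols, did not leave out. For Ccl3 they were AF357399 (1.25), Dnaaf2 (1.89) and Spsb2 (1.94). Among the 4, Ccl3 and Ccl4 lay 2.02 apart and Ccl1 and Ccl5 2.71 apart, while all other pairs were 6.03 to 8.63 apart.

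Few other chemokine genes had promoter peaks. None of the 17 other CC chemokine genes listed had an assigned promoter peak in any library, among them Ccl9 and Ccl6, which lie between Ccl5 and Ccl3, and Ccl2, Ccl7, Ccl8, Ccl11 and Ccl12 near Ccl1. Among these 17, summits inside the gene or within 1000 bp of it were listed for 2, named after their values were seen. They were Ccl25 (1 in each of the 6 libraries) and Ccl28 (1 in 30 min replicate 2 and 1 in 2 h replicate 2). Of 16 chemokine genes of other families, 2 had an assigned peak. Cxcl10 had 565 bp in 30 min replicate 2 alone, and Cxcl11 had 408 and 337 bp at 2 h (adjusted p = 0.593 against NR cells, limma). Both encode ligands of Cxcr3. Cxcl16, named after its values were seen, had 1 to 2 summits in each of the 6 libraries and no assigned promoter peak.

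Of 22 chemokine receptor genes, 11 had a peak in at least 1 library. Of the 10 fitted, 0 were longer and 0 shorter in each comparison by limma. An unadjusted p under 0.05 was found for 1 of 10, Ccr8 at 2 h against NR cells (0.049, limma). Over all genes 1249 of 9908 had one in that comparison. The median log2 difference was 0.55 at 30 min and 0.29 at 2 h against NR cells, beside -0.04 and -0.03 over all genes. Before centring, the summed length of the 11 genes was 13574 and 13942 bp in NR cells. It was 11450 and 36953 bp at 30 min and 16162 and 28068 bp at 2 h. In this sum 30 min replicate 1 lay under both NR libraries. Ccr8, the receptor of Ccl1, had 0 bp in both NR libraries, 521 bp in 30 min replicate 2, and 351 and 1200 bp at 2 h (adjusted p = 0.395 at 2 h, limma). Ccrl2 had no NR peak either, 1398 bp in 30 min replicate 2, and 274 and 1200 bp at 2 h (adjusted p = 0.492 at 2 h, limma). Cxcr3 had 706 bp in 30 min replicate 2 and 574 bp in 2 h replicate 2, and Cxcr5 420 bp in 2 h replicate 2. Ccr2, Ccr4, Ccr7, Cxcr1, Cxcr2, Cxcr4 and Cxcr6 had peaks in all 6 libraries, from 467 bp (Ccr2, NR replicate 2) to 11575 bp (Cxcr1, 30 min replicate 2). Ccr1, a receptor of Ccl3 and Ccl5, and Ccr3, a receptor of Ccl5, had no assigned peak.

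**Figure D5:**
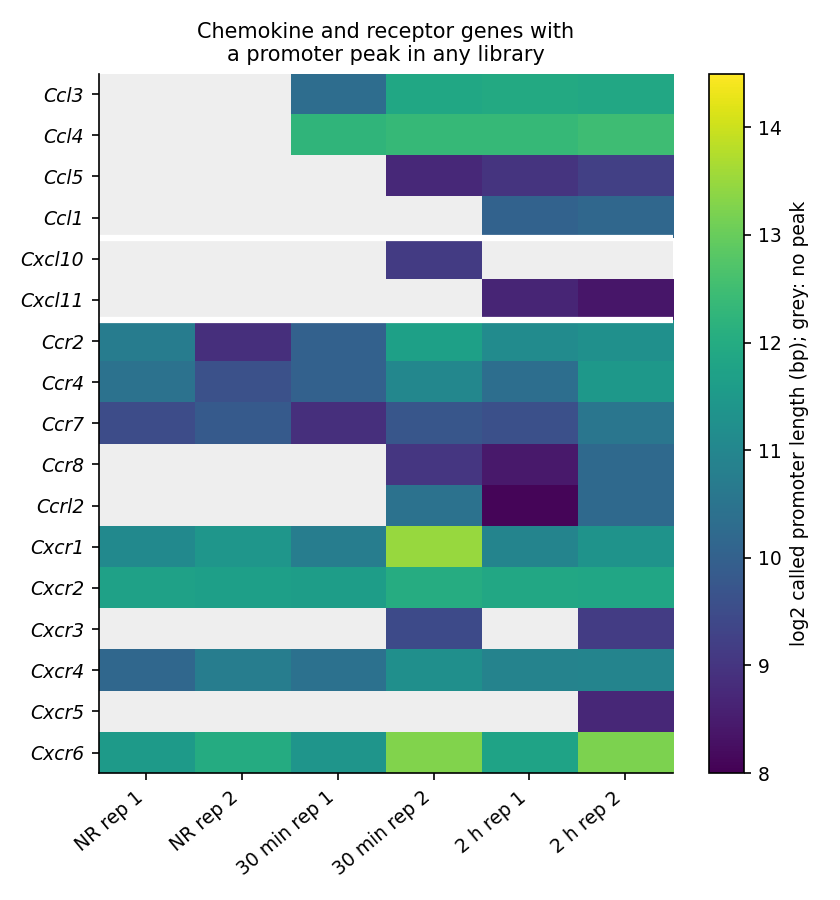
Log2 of the called promoter length in bp (colour) for the chemokine and receptor genes reported here with a peak in any library (rows) in the 6 libraries (columns), with grey for no peak. The 4 upper rows are grey in both NR libraries, while the Cxcr2 row is coloured in all 6.

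The labelled cell type was checked against marker genes by their assigned promoter peaks. Of 10 T cell and Th1 markers 9 had a peak, 8 of them in all 6 libraries (Cd3d, Cd3e, Cd3g, Cd4, Tbx21, Ifng, Il12rb2 and Stat4), while Cxcr3 had one in 2 libraries and Trac in none. Their summed length was 19559 to 21197 bp in NR cells, 27976 to 44708 bp at 30 min and 37110 to 42268 bp at 2 h. Macrophage and dendritic cells also make Ccl3 and Ccl4. Of 9 of their markers, 1 had a peak (Cd68, in all 6 libraries), with 627 and 1069 bp before restimulation, 1814 and 8697 bp at 30 min and 2574 and 8298 bp at 2 h. Cd14, Csf1r, Adgre1, Itgam, Lyz2, Itgax, Clec9a and Flt3 had none in any library. None of 4 NK cell or 4 granulocyte markers had a peak, nor had Foxp3 or Il17a. Of 6 B cell markers Ebf1 had a peak (0 bp in NR cells, 0 to 482 bp at 30 min, 0 to 513 bp at 2 h), and of 2 CD8 markers Cd8b1 (0 to 314, 0 to 521 and 0 to 576 bp). Of the Th2 genes Il4, Il5 and Il13, Il4 and Il13 had peaks, together 0 to 527 bp in NR cells, 410 to 4168 bp at 30 min and 1946 to 2427 bp at 2 h. The part of these rising lengths in the chemokine results was not tested. In such bulk samples fewer occupied cells and less polymerase per cell cannot be told apart.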

How the data were processed

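RNA polymerase II ChIP-seq was analysed in 6 libraries of mouse Th1 cells, 2 per group. The 3 H3K36me3 libraries and 1 input library of the series were not analysed here. The submitters' processing notes name BWA 0.7.13, Picard 1.119, MACS2 2.1.0 and mm10, without role or order. Peaks were called separately in each library, since each has its own deposited lists. How peaks were assigned to genes is not given.

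Per the file headers, the deposited tables give each promoter peak (within 1000 bp of a start site) its width, its signal as a pileup at the summit, its fold enrichment, and p-value and q-value as −log10. The pileup of replicates 2 comes in steps under 1 and was scaled down upstream. A second deposited list gives the summits of all peaks with −log10 q only. The smallest −log10 q in any list is 1.31. Fold enrichment and q-values were not tested between libraries.

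The length called and assigned to a gene was compared as log2(bp + 100). The median of the 7410 genes called in all 6 libraries was subtracted from each library, which removed a shift of 0.16 at 30 min and 0.48 at 2 h against NR cells. The 9908 genes called in 2 or more libraries were fitted with limma 3.58.1 in R 4.3.3 (lmFit, eBayes with trend), on the 6 libraries together, with no covariate beside group. The threshold was a Benjamini-Hochberg adjusted p of 0.05, two-sided. The script was tested on simulated data with normal noise around each gene's mean and set shifts. These data held no absent peaks, so the test does not cover genes without a peak in NR cells. Background coverage was computed from pileup and fold enrichment, taking the latter as the ratio of both plus 1, and divided by the pileup step. Of 11509 transcript spans in the tables, 97.3% lay within the RefSeq span of the same gene ID, with a tolerance of 100 bp. RefSeq's Ccl4 span is longer than the tables' and begins inside Ccl3, so the tables' span was used. Named are the 4 genes, their RefSeq neighbours, the 3 most similar genes per member and chemokine system genes with a peak. A few genes of the receptor and marker lists are not reported here and are left out of the lists' counts. Symbols of gene models, microRNAs and small nucleolar RNAs were left out of the similar genes where they follow the usual naming (such as Gm with a number, Mir or Snor). The members, lists, tests and motifs were chosen with earlier results of these data known.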

Additional observations from a re-analysis of the deposited data

How the results depend on the processing

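None of the 4 genes had a promoter peak in both NR libraries, 2 had one in both 30 min libraries and 4 (3 where a peak had to cover at least 50% of the 2 kb at the start site) in both 2 h libraries, and leaving out a library gave 0, 2 to 3 and 4. The mean number of summits in the windows was 1.5 in NR cells, 5 at 30 min and 9 at 2 h. With 5 kb on each side it was 0.5, 3.5 and 7.5. With summit lists of equal length it was 0.5 in NR cells and 5.5 at 2 h, and with a −log10 q of at least 5 it was 6.5 at 2 h. Leaving out a library gave 1 to 2, 4 to 6 and 8 to 10.

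Adjusted p by limma for Ccl3 at 30 min ranged from 0.00682 to 0.581 over 16 alternatives. It was 0.0587 with a pseudocount of 1000 bp, 0.106 with quantile normalisation, 0.151 with only the 4 libraries compared and 0.581 for the number of summits. For Ccl3 at 2 h (0.00627 to 0.563) it was 0.563 for the number of summits. For Ccl4 at 30 min (0.000775 to 1) it was 0.0501 with only the 4 libraries and 1 for the number of summits, and at 2 h (0.000685 to 1) it was 1 for the number of summits. A wide peak adds at most 1 summit to this count, whatever its length. At Ccl4 in 2 h replicate 1 the count was 0, since the summit lay 1289 bp past the 3′ end, outside the 1000 bp counted. Without a library these 4 values ranged from 0.0202 to 0.105, 0.0079 to 0.106, 0.00805 to 0.0597 and 0.00319 to 0.0942. Directions turned for Ccl4 at 2 h against 30 min without centring and without 30 min replicate 1 (adjusted p = 1 in both; 0.279 to 1 without a library), for Ccl3 at 2 h against 30 min by summits (adjusted p = 1) and for Ccl5 at 30 min against NR cells with lists of equal length, where it had no peak left (adjusted p = 0.991). No member crossed the threshold upwards. Ccl1 could not be fitted with lists of equal length.

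Longer and shorter genes at 30 min (23 and 1) were 5 and 2 with only the 4 libraries and 61 and 35 by summits. The shorter ones were 7 with a pseudocount of 1000 bp and 0 by position. Without a library there were 4 to 59 and 0 to 176. At 2 h (37 and 6) they were 93 and 19 with a pseudocount of 1000 bp, 59 and 20 with quantile normalisation, 71 and 15 with lists of equal length, 147 and 29 with only the 4 libraries and 117 and 34 by summits. The shorter ones were 1 without centring, 2 with a −log10 q of at least 5 and 0 by position. Without a library there were 3 to 156 and 0 to 46. At 2 h against 30 min (0 and 0) they were 5 and 3 with a pseudocount of 1000 bp and 79 and 25 by summits, with 1 shorter after quantile normalisation and 4 with lists of equal length. Without a library there were 0 to 177 and 0 to 26. The cause of these shifts was not tested.

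The replicate numbers are shared between groups, but no label says that they mark a pairing. The difference of replicate 2 from replicate 1 correlated over 9908 genes at 0.442 (NR and 30 min), 0.269 (NR and 2 h) and 0.408 (30 min and 2 h). With the replicate block 18 and 1 genes were longer and shorter at 30 min and 28 and 5 at 2 h. Adjusted p was 0.039 (30 min) and 0.0306 (2 h) for Ccl3 and 0.00511 and 0.00491 for Ccl4, and no call of the 4 genes changed. A peak under the calling limit is not listed, so absence in the shallow replicate 1 libraries, NR replicate 1 above all, says little.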
